A study of Mus musculus with 6 samples.

Results

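Interleukin-6 (IL-6) mRNA was followed in macrophages grown from mouse bone marrow and exposed to bacterial lipopolysaccharide (LPS), the outer-membrane component of Gram-negative bacteria that the receptor TLR4 recognises. The transcript was selected by its identifier, ENSMUST00000026845_at, which the selection rule gives as the main Il6 transcript. It is 1 of 74007 transcript-level rows on the array. The name comes from that rule, because neither the expression file nor the reference tables link Ensembl identifiers to symbols, and it was not checked against an annotation. Il6 was chosen with its response to LPS known, so its levels in the 2 groups are a description and carry no test.

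The study comprised 6 Affymetrix Mouse Exon 1.0 ST arrays, 1 for each culture. In the LPS group 3 cultures received LPS at 10 ng/mL on day 7 and were lysed 4 h later. The unstimulated group held 3 cultures that received no stimulus. All cultures, unstimulated ones included, came from femoral marrow of female C57BL/6J mice aged 8 to 12 weeks on normal chow and were grown in recombinant human M-CSF at 50 ng/mL. Marrow of 3 animals was used, and the macrophages of each were divided between both groups. Values are the authors' log2 expression values. Without gene names for the rows, the labelled cell type was not checked against macrophage markers here. The medians of the rows averaged 7.77 on the LPS arrays and 7.92 on the unstimulated arrays, and the 1st percentiles lay between 6.22 and 6.24 on all 6 arrays.

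IL-6 is a secreted cytokine that macrophages release after TLR4 is engaged. It binds its receptor chain IL-6R and the shared signalling chain gp130, which act through JAK kinases and the transcription factor STAT3. It drives the acute-phase response of the liver, contributes to fever and shapes the differentiation of B and T cells. In macrophages its gene is switched on by NF-kB together with C/EBP and AP-1 family factors, and its mRNA is short-lived, being cut by the endonuclease Regnase-1.

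The gene lies on chromosome 5 (GRCm38.p6, chr5:30013114-30019975, plus strand, 6862 bases, 2 curated RefSeq mRNAs). The 250 bases before its RefSeq start, chr5:30012864-30013113 on the plus strand, are shown because the signalling that LPS starts meets the gene there. They run 5′ to 3′, with capitals marking 4 motifs that were chosen because they are known from this promoter.
Il6 promoter: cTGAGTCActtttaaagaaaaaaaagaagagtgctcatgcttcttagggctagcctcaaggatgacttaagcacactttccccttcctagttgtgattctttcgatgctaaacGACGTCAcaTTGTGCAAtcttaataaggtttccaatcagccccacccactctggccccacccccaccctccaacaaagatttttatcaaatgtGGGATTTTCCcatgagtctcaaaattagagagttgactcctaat

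Both strands were searched, and each motif matched at 1 place, with no overlap between motifs. The NF-kB motif, written as GGG, any 3 bases and TTCC, lay 44 to 35 bases before the start and was found in 4.65% of the same 250-base windows of 32851 RefSeq promoters. The C/EBP motif TTNNGCAA lay 128 to 121 bases before it (9.56% of promoters). The cyclic AMP response element motif GACGTCA lay 137 to 131 bases before it (2.78% of promoters). The AP-1 motif TGANTCA lay 249 to 243 bases before it (6.75% of promoters). These are matches of letters in the reference sequence, and binding was not measured.

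Il6 mRNA was near the bottom of the array without LPS and among the brightest rows with it. On the LPS arrays its log2 expression was 11.82, 12.12 and 12.16 in arrays 1, 2 and 3. On the unstimulated arrays it was 6.14, 6.13 and 6.11 in arrays 1, 2 and 3. The groups did not overlap, and the lowest LPS array stood 5.68 above the highest unstimulated array. The means were 12.03 ± 0.19 with LPS and 6.13 ± 0.017 without (SD, n = 3 each). They differed by 5.90 ± 0.095 (SE), which is 59.9-fold on the deposited scale. With the 1st percentile of each array subtracted as background and signals floored at 16, the unstimulated values sat at that floor and the fold was 257. Taken out of the logarithm, the signals were 3611, 4458 and 4573 on the LPS arrays, against 70.7, 70.3 and 69.1 on the unstimulated arrays. The median difference over all 74007 rows was -0.022. RNA was taken from whole cultures, so more cells that make Il6 mRNA and more Il6 mRNA in each cell cannot be told apart.

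**Figure D1:**
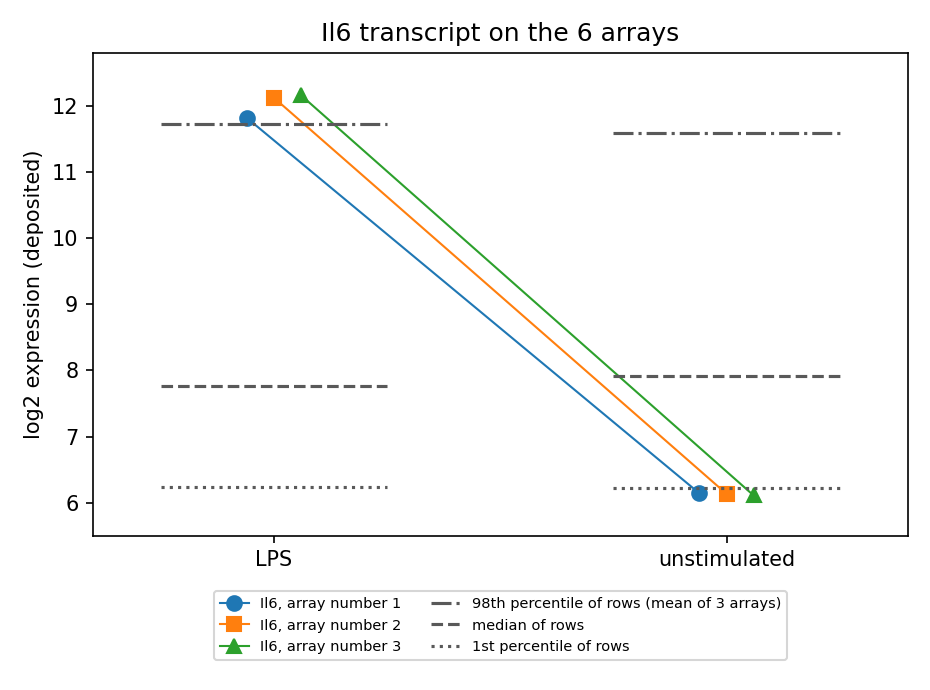
Log2 expression of the Il6 transcript (vertical axis) in the LPS and unstimulated groups, with a line joining arrays of the same number. Grey lines give the 98th percentile, median and 1st percentile of all rows as means over the 3 arrays of a group. The 3 LPS values lie at 11.82 to 12.16, above the 98th percentile, and the 3 unstimulated values at 6.11 to 6.14, below the 1st percentile.

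The rank of Il6 within each array shows how far it moved through the transcriptome. On LPS arrays 1, 2 and 3 only 1302, 865 and 750 rows were brighter, which is 1.76%, 1.17% and 1.01% of the rows. On unstimulated arrays 1, 2 and 3 only 370, 266 and 192 rows were dimmer, which is 0.50%, 0.359% and 0.259% of the rows. The dimmest row of any unstimulated array was at 5.84 to 5.91. In the absence of LPS, Il6 was 0.20 to 0.30 log2 units above the end of the scale. Detection calls were not used here, so low and absent Il6 mRNA look the same, and the fold is a lower bound if the mRNA was absent. Because probes differ in brightness, these ranks are of signal, not of abundance.

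The limma fit called 8.75% of all rows higher with LPS and 23.2% lower (Benjamini-Hochberg adjusted p under 0.05). This balance turned on the scaling of the arrays: 27.3% of calls were higher as deposited, 43.4% after quantile normalization, 48.7% after cyclic loess normalization, 66.6% with median centring and 69.9% with centring on rows above the median level. The 2 centrings also raised the number of calls to 35595 and 35998, against 23667 as deposited. In the deposited values 3.00% of rows were higher by at least 2-fold and 0.105%, or 78 rows, by at least 16-fold. Rows are transcripts and some repeat the values of another row, so these are not counts of genes. With repeats kept once, 8.77% of rows were called higher and 23.5% lower. Il6 belongs to the higher sets, and since it was chosen from this contrast nothing is read from its membership. Among the 78 rows it had the lowest unstimulated mean. The next lowest was at 6.35, and their median was 7.36. With LPS, 51 of the other 77 rows were brighter than Il6.

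Rows as dim as Il6 without LPS hardly moved, counted by the mean difference alone. A total of 212 rows had a lower unstimulated mean, and 0 of them were at least 2-fold higher with LPS. The largest of these differences was 0.47 and their median was 0.052. The 611 rows within 0.1 log2 units of the Il6 unstimulated mean also held 0 rows that were at least 2-fold higher, the largest difference being 0.36. Of the 741 rows in the lowest 1% without LPS, 1 lay in the top 2% with LPS, and that row was Il6. With the wider cut of the lowest 10%, 3 rows did, Il6 included, so it stood alone only at the narrower cut. In the lowest 10%, 20 of 7401 rows were at least 2-fold higher, 9 of them at least 16-fold, Il6 included. Over all 74007 rows, 3.00% were called and at least 2-fold higher, and 0.105% at least 16-fold. Rises of 2-fold were thus rarer in the lowest 10% than over all rows, but rises of 16-fold were not. These counts describe the array around Il6. They are no test, because Il6 was chosen for its difference.

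**Figure D2:**
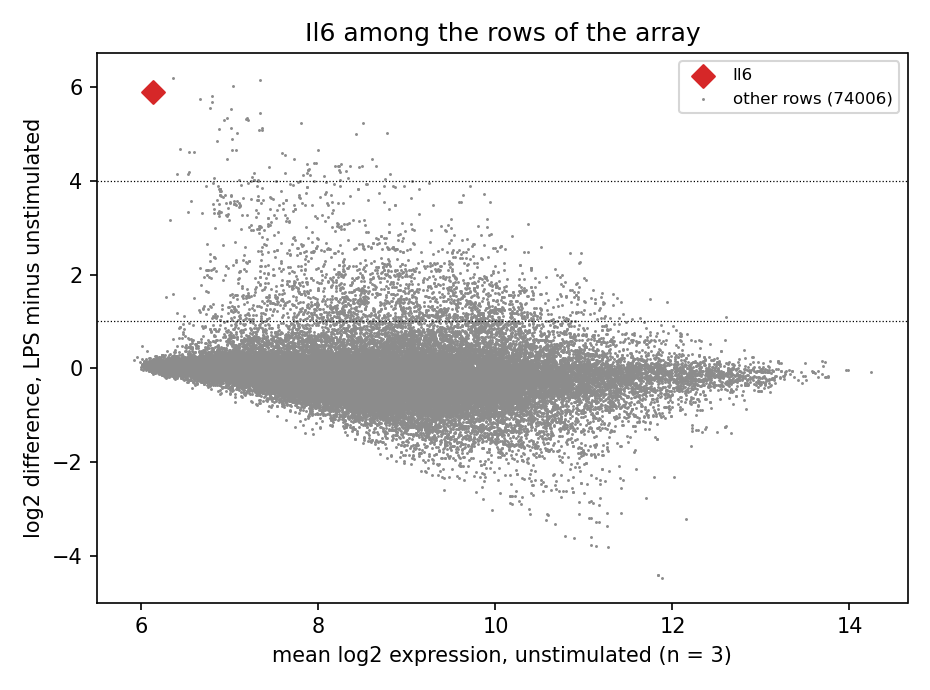
Log2 difference between LPS and unstimulated means (vertical axis) against the mean log2 expression of the unstimulated arrays (horizontal axis, n = 3), with 1 grey point for each of the other rows and Il6 as a red diamond. Dotted lines mark 2-fold and 16-fold rises. Il6 stands at 6.13 and 5.90, above the 2-fold line, where no other row that dim lies.

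Most rows at the LPS level of Il6 did not rise 2-fold, though a larger share did than over all rows. Of the 265 rows within 0.1 log2 units of the Il6 mean on the LPS arrays, the median unstimulated mean was 12.04 and the median difference -0.0056. Of these rows 62 were at least 2-fold higher with LPS and 9 at least 16-fold. Over all 74007 rows, 3.00% were called and at least 2-fold higher, and 0.105% at least 16-fold. The 265 rows were picked by their level with LPS, so their larger shares carry no test. The lowest unstimulated mean among the 265 rows was 6.88, above that of Il6.

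Same-numbered arrays were treated as cultures of 1 animal, a match that the titles do not state. By such pair, the Il6 difference was 5.68 in pair 1, 5.99 in pair 2 and 6.05 in pair 3. These are folds of 51.1, 63.5 and 66.2, and the SD of the 3 differences was 0.20. The spread came from the LPS arrays, where array 1 was 0.32 below the mean of arrays 2 and 3. The 3 unstimulated arrays spanned 0.033. Across 265 rows at the same LPS level the median SD between LPS arrays was 0.14, and 67.9% of them had a smaller SD than Il6. Across 611 rows at the same unstimulated level the median SD was 0.056, and 7.69% had a smaller SD than Il6. Il6 thus varied less than most rows of its level without LPS, and more than most rows of its level with LPS. Among the other 77 rows raised at least 16-fold, 28 had a larger SD between LPS arrays than Il6. Each SD rests on 3 arrays, and the unstimulated values of Il6 lie near the end of the scale.

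The pair order of Il6 was not that of most strongly raised rows. Over the 78 rows raised at least 16-fold, the median difference was 4.66 in pair 1, 4.43 in pair 2 and 4.30 in pair 3, so that the order ran opposite to that of Il6. Pair 1 gave the smallest difference for 11 of the 78 rows, Il6 included, and pair 3 for 46. LPS array 1 was the lowest LPS array for 24 of them, and LPS array 3 for 40. The pair order of Il6 was found in 6 of the 78 rows, Il6 included. Of the other 77 rows, 9 shared the order of Il6 over the LPS arrays. How common either order was over all rows was not counted. These rows share the 6 arrays, so the counts describe them and carry no test. The lower Il6 value of LPS array 1 kept its sign under the 4 other scalings of the arrays that were run, at -0.30 to -0.35 against arrays 2 and 3.

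Whether Il6 differed between animals is not the contrast for which it was chosen, but the test uses the same array values. Averaged over both groups, Il6 was 0.15 higher in animal 2 than in animal 1, and 0.15 higher in animal 3 than in animal 1. It was 0.0060 higher in animal 3 than in animal 2. The higher averages of animals 2 and 3 came from the LPS arrays. Without LPS animal 1 was the highest, at 6.14 against 6.13 and 6.11, all near the end of the scale. The limma F test of the replicate number, fitted over all rows with the group as a term, gave a Benjamini-Hochberg adjusted p of 0.671 for Il6. It called 0 of the 74007 rows, 0% of them. Unadjusted, 9996 rows had a p under 0.05, a larger share than 0.05 of the rows. The model gives each animal the same shift in both groups, so a difference present only with LPS falls partly into its residual. Neither the 0 calls nor the p of Il6 shows that the animals were alike.

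Il6 had the fourth largest rise of all rows, but its place among its neighbours is not settled by these arrays. The row above it stood 0.12 higher and the row below it 0.10 lower, against an SE of 0.095 for Il6 itself. The largest rise exceeded it by 0.29. In pairs 1, 2 and 3 taken singly, Il6 ranked 6, 4 and 2.

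**Figure D3:**
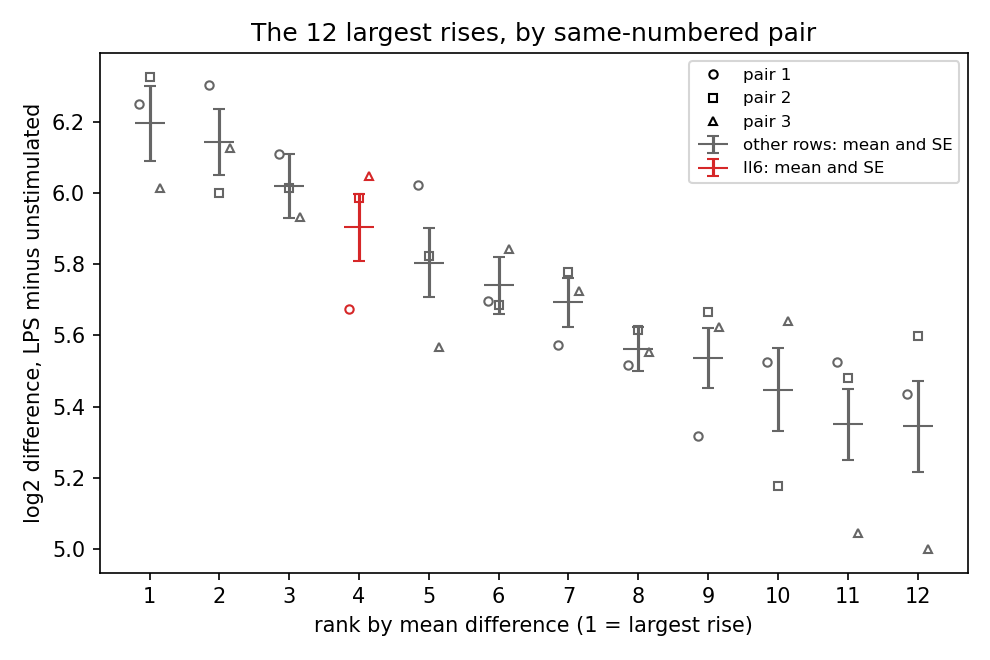
Log2 difference between LPS and unstimulated arrays (vertical axis) for the 12 rows with the largest mean rise, ordered by rank (horizontal axis). Horizontal bars with whiskers give the mean and limma SE, open symbols the 3 same-numbered pairs, and red marks Il6 at rank 4. Its pair 1 value of 5.68 lies below the pair 1 values of the rows at ranks 5 and 6, while its pair 3 value of 6.05 lies above theirs.

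The rows whose pattern was most like that of Il6 were found by the Euclidean distance between the 6 log2 values after each row's mean was removed. The nearest 8 rows lay at distances of 0.26 to 0.59 and were the other rows at ranks 1 to 9 by size of rise. This distance is set largely by the size of the rise, so that nearness in rank was built in. The nearest, ENSMUST00000077820_at, was at 12.27, 12.42 and 12.52 on LPS arrays 1, 2 and 3, against 6.57, 6.73 and 6.68 on unstimulated arrays 1, 2 and 3. Like Il6 it was lowest on LPS array 1 and highest on LPS array 3, and its difference was 5.74 ± 0.080 (SE). The second, ENSMUST00000032259_at at a distance of 0.33, was at 12.97, 13.14 and 13.06 on the LPS arrays, against 6.86, 7.13 and 7.13 on the unstimulated arrays. Its difference of 6.02 was 0.12 above that of Il6, and its pair differences of 6.11, 6.01 and 5.93 ran in the opposite order. All 8 had a higher mean than Il6 in both groups, with LPS means from 12.34 to 13.48 and unstimulated means from 6.35 to 7.34. By Pearson's r over the 6 arrays, 957 rows had an r above 0.99 with Il6. Such an r follows from a clear rise of any size. A row among the 8 nearest by r rose only 1.96-fold.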

How the data were processed

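Per the series text, the authors deposited log2 expression values of transcript-level probe sets, 1 array for each culture. PLIER and Affymetrix Power Tools are named, without versions, in the submitters' processing notes. Annotation release, genome build, offset and any normalization across arrays were not stated in the sources used here. The reference table held 49997 genes and 0 Ensembl identifiers, so rows have no gene names, and the pathway and marker lists were not used. Samples were grouped by title. The model was limma 3.58.1 in R 4.3.3 (lmFit, eBayes) on the deposited values over all 74007 rows, two-sided, with Benjamini-Hochberg adjustment at 0.05 and no filter. It was tested on simulated data. Every difference is LPS minus unstimulated. At least 2-fold and at least 16-fold mean log2 differences of 1 and 4 or more.

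The series text gives each animal 1 culture in each group. After subtraction of the group means, LPS and unstimulated arrays of the same number correlated across rows at 0.50, 0.30 and 0.12, and the numbers were treated as pairs. Of the differently numbered arrays, LPS array 3 and unstimulated array 2 correlated at 0.21, above the third pair, and the others at -0.48 to -0.054. After the subtraction the values of a group cancel out in each row, so these negative correlations are not separate support for the pairs. Likeness to Il6 was ranked by distance, 8 rows were kept and, without gene names, the first 2 are printed. Il6, the lists and the tests were chosen with earlier results of these data known. Promoter sequence is from RefSeq (GRCm38.p6). The number of arrays limits the precision. Figures were drawn with matplotlib 3.10.9.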

Additional observations from a re-analysis of the deposited data

How the results depend on the processing

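The Il6 difference was 5.90 as deposited and stayed within the SD of the LPS arrays under quantile normalization (5.85), median centring (6.05) and centring on rows above the median level (6.09). Median centring removes the difference of -0.15 between the medians of the LPS and unstimulated arrays. The difference moved to 6.12 with cyclic loess normalization and to 5.61 with 16 added before the logarithm. With the 1st percentile of each array subtracted and signals floored at 16 it was 8.01, or 257-fold. All unstimulated Il6 values then sat at that floor, which sets the fold, and Il6 ranked 2 in place of 4. Leaving out 1 array in turn gave 5.84 to 6.01 and ranks of 4 to 5. Without LPS array 1 the SE was 0.055 in place of 0.095. With the replicate number as a block the difference was the same, with an SE of 0.088, and 26284 rows were called in place of 23667. The count of called rows was 35595 with median centring and 35998 with centring on rows above the median level, and 18380 to 22009 with 1 array left out. The adjusted p for animal number stayed above 0.05 in all settings run, at 0.411 to 1.00 with 1 array left out. Of the 8 rows nearest by distance, 1 was among the 8 nearest by Pearson's r. The 0 rows dimmer than Il6 that rose at least 2-fold stayed at 0 in the 11 alternatives run, of 198 to 251 dimmer rows but of only 6 with cyclic loess normalization, which were chosen after seeing the data, as were the scalings of the LPS array order. Settings for gene lists were not run, because the rows have no gene names.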
